A study of Homo sapiens with 2 samples.

Results

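Proteasome and immunoproteasome genes were compared between a pair of human melanoma cell lines, IGR39 from a primary achromic skin tumour and IGR37 from a metastasis in a lymph node. Both lines were cultured alike and untreated as far as the labels say, in DMEM with serum. Each was measured on 1 Affymetrix array of 54675 probe sets, a probe set being a group of short probes for 1 transcript. The members were the genes whose platform symbol begins with PSMA, PSMB, PSMC, PSMD, PSME or PSMF and a digit, read from probe sets with 1 symbol. This gave 45 of 19775 genes, on 88 probe sets. Where a gene had several probe sets, the one with the highest mean of the 2 arrays stood for it. Of the 45 genes, 39 reached log2 6, the minimum used here for a gene to be counted, and all 39 did so in both lines. None of them therefore entered the counts through its brighter line alone.

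The proteasome is the protease that degrades proteins tagged with ubiquitin. Its barrel-shaped core is built of alpha and beta rings, with the cutting sites inside the beta rings, and a regulatory particle of ATPase and non-ATPase subunits unfolds the substrate. In cells exposed to interferon, the beta subunits PSMB8, PSMB9 and PSMB10 take the places of PSMB5, PSMB6 and PSMB7. The core is then capped more often by a ring of PSME1 and PSME2, and the peptides it makes are better suited to loading on HLA class I molecules. The comparison asked how these inducible genes differed between the lines beside the rest of the proteasome.

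The promoters of the inducible genes are shown first, because this shared regulation is what defines them as a group. The windows are from RefSeq (GRCh38.p14), run from 250 bases before to 50 bases after an annotated start, and are written 5′ to 3′ on the gene's strand. Capitals mark GAAA repeated after any 2 bases, on either strand, which is the core of the element bound by interferon regulatory factors, with overlapping matches joined. The windows are PSMB8 at chr6:32843998-32844297 (minus strand), PSMB9 at chr6:32853942-32854241 (plus strand), TAP1 at chr6:32853655-32853954 (minus strand), PSMB10 at chr16:67936801-67937100 (minus strand) and PSME1 at chr14:24135944-24136243 (plus strand).
PSMB8: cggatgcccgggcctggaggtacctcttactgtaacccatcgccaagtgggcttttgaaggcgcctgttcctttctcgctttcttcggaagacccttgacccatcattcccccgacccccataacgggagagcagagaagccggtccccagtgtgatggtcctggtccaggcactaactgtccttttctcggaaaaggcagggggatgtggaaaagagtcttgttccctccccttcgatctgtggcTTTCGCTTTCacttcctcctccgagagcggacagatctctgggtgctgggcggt
PSMB9: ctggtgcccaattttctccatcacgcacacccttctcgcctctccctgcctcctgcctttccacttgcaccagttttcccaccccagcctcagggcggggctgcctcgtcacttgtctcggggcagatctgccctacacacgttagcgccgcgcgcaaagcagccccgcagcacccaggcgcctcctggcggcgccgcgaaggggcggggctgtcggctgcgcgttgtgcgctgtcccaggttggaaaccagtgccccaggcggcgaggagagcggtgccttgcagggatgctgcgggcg
TAP1: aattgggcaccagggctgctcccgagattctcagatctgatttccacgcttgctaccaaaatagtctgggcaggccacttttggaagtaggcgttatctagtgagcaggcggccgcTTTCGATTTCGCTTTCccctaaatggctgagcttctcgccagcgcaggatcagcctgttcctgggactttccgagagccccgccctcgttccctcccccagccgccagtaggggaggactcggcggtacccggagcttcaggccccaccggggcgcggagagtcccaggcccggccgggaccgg
PSMB10: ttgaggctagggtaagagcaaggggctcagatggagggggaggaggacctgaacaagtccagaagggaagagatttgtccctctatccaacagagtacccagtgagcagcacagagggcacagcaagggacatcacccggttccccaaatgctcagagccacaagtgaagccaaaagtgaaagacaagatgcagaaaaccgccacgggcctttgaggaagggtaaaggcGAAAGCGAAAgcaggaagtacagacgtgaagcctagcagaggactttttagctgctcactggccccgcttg
PSME1: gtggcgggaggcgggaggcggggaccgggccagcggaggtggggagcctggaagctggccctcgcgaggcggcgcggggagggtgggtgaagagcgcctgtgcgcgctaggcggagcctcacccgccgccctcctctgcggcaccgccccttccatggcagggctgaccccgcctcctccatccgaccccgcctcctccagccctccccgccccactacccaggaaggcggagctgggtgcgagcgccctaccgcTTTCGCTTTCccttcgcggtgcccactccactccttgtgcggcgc
TAP1, a peptide transporter gene, is included because it and PSMB9 are transcribed away from each other, with starts 488 bases apart. Their windows overlap by 13 bases.

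Promoter windows matched 34 of the 39 members, and PSMA7, PSMB1, PSMB6, PSMB7 and PSMD4 had no match. The interferon core lay in a window of PSMB8, PSMB10 and PSME1, beginning within 21 bases of the start in each. PSMB8 has another annotated window, which holds no match. The PSMB9 window holds none either, while the TAP1 window on the other side of the shared stretch holds 2 overlapping matches, ending 354 and 360 bases upstream of the PSMB9 start. Among the 30 other members with a window, PSMA4 and PSMB4 held the core. Over all 27305 genes with a window in that table, 4.38% held it. TTCNNNGAA, the palindrome bound by STAT factors, lay in windows of 7 of the 34 members (20.6%), against 9.38% of all genes, and of the inducible genes PSMB8 had one. TGACNNNGC, the core bound by CNC-MAF dimers such as those of NFE2L1, was in 11 of 34 (32.4%) against 16.1%. A match is a description of letters and does not show binding.

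Of the inducible set, PSMB9 and PSME1 were lower in the metastasis line, while PSMB8 and PSMB10 differed little. PSMB9, the inducible subunit of the caspase-like site, stood at log2 8.46 in IGR39 against 7.25 in IGR37, a difference of -1.21 or 2.31-fold. PSME1, the alpha chain of the inducible cap, stood at 9.61 and 8.30, a difference of -1.31 or 2.48-fold. Differences are given throughout as log2 IGR37 minus log2 IGR39, so that a negative value means lower in the metastasis line and a value of 1 is 2-fold. PSMB8, which replaces the chymotrypsin-like subunit, was at 8.04 and 7.80, a difference of -0.24. PSMB10, which replaces the trypsin-like subunit, was at 7.44 and 7.50, a difference of 0.06 that turned to -0.10 after centring on housekeeping genes and to -0.03 after removing a lowess trend. The counted genes of the set therefore did not move as 1 block. PSME2 had no probe set of a single symbol and is not counted. A probe set listed under both MIR7703 and PSME2, described in the closing section, differed by -1.37.

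With 1 array per line no test can be made, and no difference has a replicate check. As a yardstick for the probes, differences of probe sets of the same gene had a pooled SD of 0.40 over 3178 genes and 0.29 over 16 proteasome genes. Spike-in RNAs added before labelling differed by -0.47 to 0.68 between the arrays on 24 probe sets. The differences of PSMB9 and PSME1 lay beyond that range, and those of PSMB8 and PSMB10 within it. Hybridisation spike-ins had a narrower range, from -0.14 to 0.21 on 18 probe sets. PSMB8 lay just outside this narrower range and PSMB10 within it. Each of the 4 inducible genes was read by 1 probe set, so none has another probe set beside it. Over the 8501 genes that met the minimum, 9.50% were lower by at least 2-fold and 11.4% were higher by as much. A lower difference than that of PSMB9 was seen in 7.66% of these genes, and than that of PSME1 in 6.89%.

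The lines can also be read site by site, setting the difference of each inducible beta gene beside that of its constitutive counterpart. PSME1 was set beside PSME3, a related cap gene and not a subunit that PSME1 replaces. At the caspase-like site, the constitutive PSMB6 was at 9.81 in IGR39 against 9.36 in IGR37, a difference of -0.45, and PSMB9 lay 0.76 further down. At the chymotrypsin-like site, PSMB5 was at 9.15 and 8.92, and its difference of -0.22 was within 0.02 of that of PSMB8. At the trypsin-like site, PSMB7 was at 11.19 and 11.12, a difference of -0.07 against 0.06 for PSMB10. All 3 constitutive catalytic genes were thus somewhat lower in IGR37, by amounts within the wider spike-in range. PSMB5 and PSMB6 lay outside the narrower range of the hybridisation spike-ins, and PSMB7 within it. The cap genes went opposite ways. PSME3, whose product forms a related cap in the nucleus and is not part of the interferon response, was at 8.99 in IGR39 against 9.48 in IGR37. Its 4 probe sets at or above log2 6 differed by 0.31 to 0.69. The gap between the differences of PSME1 and PSME3 was 1.81, the largest of the 4 pairs compared.

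**Figure D1:**
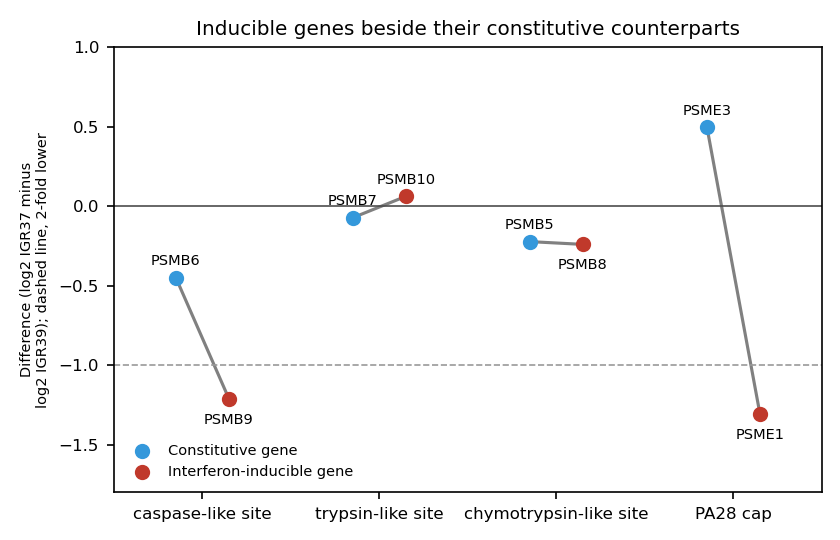
Differences on the log2 scale (vertical axis, IGR37 minus IGR39) of the 4 inducible genes (red) and their constitutive counterparts (blue), 1 array per line with no error bars, joined by site; the dashed line marks 2-fold lower. PSMB9 at -1.21 and PSME1 at -1.31 lie below the line, while PSMB8 and PSMB10 lie near their counterparts. PSME3, drawn beside PSME1, is a related cap gene and not a subunit that PSME1 replaces.

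Over the 4 inducible genes the median difference was -0.73, with 2 of 4 at least 2-fold lower and 0 higher. Over the other 35 members it was 0.20, with 1 lower and 0 higher, so the medians lay 0.92 apart. Across all genes tested the median was 0.07. Because PSMB9 and PSME1 were lower by more than 2-fold while PSMB8 and PSMB10 differed little, the median of the set describes none of its members. When _x_at and _s_at probe sets were left out, which can match more than 1 transcript, PSMB8 dropped out and the median of the remaining 3 was -1.21. Of the 39 members together, 3 (7.69%) were lower by at least 2-fold, close to the 9.50% of all genes.

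The subunits of the core and of the regulatory particle lay close together. All 27 genes of the alpha ring, the constitutive beta ring, the ATPases and the non-ATPases that met the minimum lay within 2-fold. Their differences ran from -0.45 to 0.87. Their median was 0.32 and their SD 0.32. Over all genes tested the SD was 1.18, and over the 3007 genes with a mean of at least log2 8 it was 0.93. Of the 27, 20 were higher in IGR37, beside 4635 of the 8501 genes tested and 1753 of the 3007 bright ones. The scaling bears on this count. Centring on housekeeping genes took 0.16 from every difference, which left 16 of 27 higher with a median of 0.16. A lowess correction also left 16. Of the 8501 genes tested, the centring left 3759 higher and the lowess correction 4175. Relative to the median of all genes, the 27 stood 0.25 higher as deposited, and 0.19 higher after the lowess correction. Centring takes the same amount from every gene, so it cannot change this offset. Over all genes, centring on housekeeping genes turned 973 at least 2-fold higher and 808 lower into 765 and 1024.

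The alpha ring gates the entrance to the core. Of its 6 genes that met the minimum, 5 were higher in IGR37, beside 4635 of all 8501 genes tested. PSMA7 had the largest difference, at 11.72 in IGR39 against 12.21 in IGR37, or 0.48, with 0.74 on its other probe set. PSMA3 had the lowest, at 9.80 and 9.78. PSMA1, PSMA2, PSMA4 and PSMA5 had differences from 0.32 to 0.43. PSMA8, an alpha subunit of the testis, was at 2.99 and 3.14, below the minimum in both lines. PSMA6 had no probe set of a single symbol and is not counted. The probe sets listed under both PRORP and PSMA6 differed by -0.32 and -0.24.

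The constitutive beta ring was less uniform. PSMB4, a structural subunit without a cutting site, was at 11.44 in IGR39 against 12.32 in IGR37, a difference of 0.87. Its other probe sets gave 1.10 and 1.27, so the mean over its probe sets was 1.08 and past the 2-fold limit. PSMB1, also without a cutting site, was at 10.74 and 11.30, with 0.55 and 0.49 on its probe sets. These were the genes of the ring with the largest positive differences. PSMB2 was at 10.91 and 10.93, with 0.49 on a dimmer probe set, and PSMB3 was at 11.16 and 11.12. The structural genes did not all go 1 way. PSMB1, PSMB2 and PSMB4 were higher in IGR37 and PSMB3 was lower, with only 0.02 for PSMB2 and -0.04 for PSMB3. The 3 catalytic genes given above were lower. PSMB2 turned lower after centring on housekeeping genes.

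**Figure D2:**
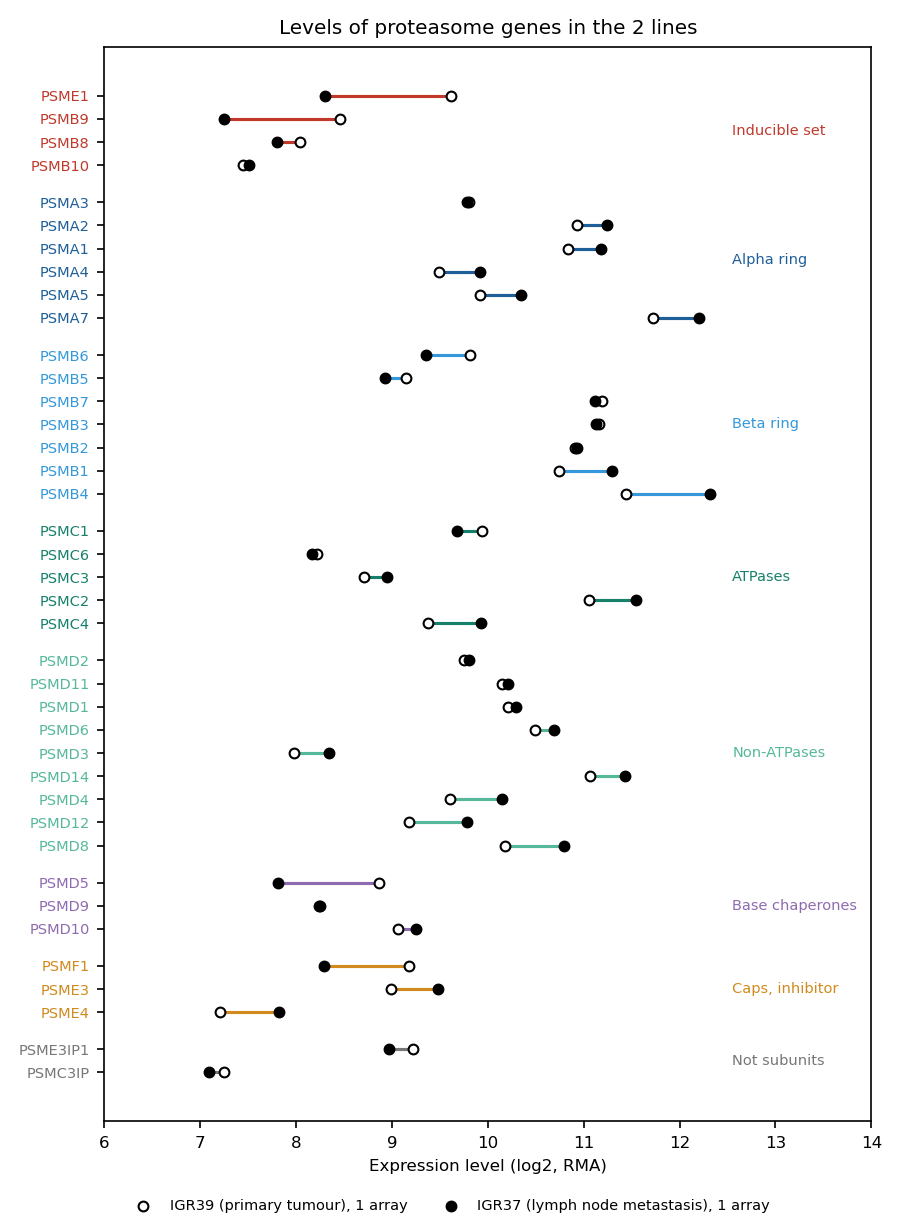
Expression levels (log2, horizontal axis) of the 39 proteasome genes at or above log2 6, with IGR39 as open and IGR37 as filled circles, 1 array each, coloured and grouped by role. Levels of different genes come from different probes and cannot be ranked. Most pairs of circles lie close together, and PSME1, PSMB9, PSMD5 and PSMF1 show the widest gaps towards lower values in IGR37.

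Of the 5 measured ATPases, which form the ring that unfolds substrates, 3 were higher in IGR37 and 2 lower. PSMC4 was at 9.37 in IGR39 against 9.93 in IGR37, a difference of 0.56, and PSMC1 at 9.94 and 9.68, or -0.26. For PSMC2, probe sets disagreed in direction, with 0.49 on the brighter and -0.15 on the other at this level. All 9 measured non-ATPase subunits were higher in IGR37, from 0.06 for PSMD2 to 0.61 for PSMD8, and 6 of 9 were after centring on housekeeping genes. Of all 8501 genes tested, 4635 were higher as deposited and 3759 after that centring. PSMD2, a scaffold that docks ubiquitin receptors, was at 9.75 and 9.81. PSMD8 was at 10.18 and 10.79. PSMD14, the enzyme that removes ubiquitin chains from substrates, was at 11.06 and 11.43, and PSMD4, a ubiquitin receptor, at 9.61 and 10.14. PSMD4's 3 probe sets at this level differed by 0.53 to 0.59, whereas those of PSMD12 gave 0.61 and -0.18. No subunit of the regulatory particle approached the 2-fold limit.

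Outside the particle itself, 2 genes were lower in IGR37 by amounts near that limit. PSMD5, a chaperone that helps assemble the ATPase ring, was at 8.87 in IGR39 against 7.81 in IGR37, a difference of -1.06 or 2.09-fold. Its other probe set was near background, at 4.18 and 3.97, and the mean of both gave -0.64. PSMF1, which encodes an inhibitor of the core that binds its ends, was at 9.18 and 8.29. Its difference of -0.89 stayed just inside the limit, with -0.57 on a dimmer one that also met the minimum, and passed it at -1.05 after centring on housekeeping genes. The other chaperones of the ATPase ring differed little. PSMD9 was at 8.25 and 8.24, and PSMD10 at 9.06 and 9.25.

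PSME4, which encodes a large single-chain cap of the core, was at 7.20 in IGR39 against 7.83 in IGR37. Its difference of 0.62 was not shared by its other probe set above the minimum, which was at 6.68 and 6.08, or -0.60. Some genes matched the symbol rule without being subunits. PSMC3IP, a recombination factor, was at 7.24 and 7.09, and PSME3IP1, which encodes a binding partner of the PSME3 cap, at 9.22 and 8.97. Without them the median of the remaining 33 members outside the inducible set was 0.24. The 5 noncoding transcripts with such symbols were all below the minimum, with 5.57 as their highest value. Among these PSMB8-AS1, which lies beside PSMB8, was at 4.64 and 3.48.

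**Figure D3:**
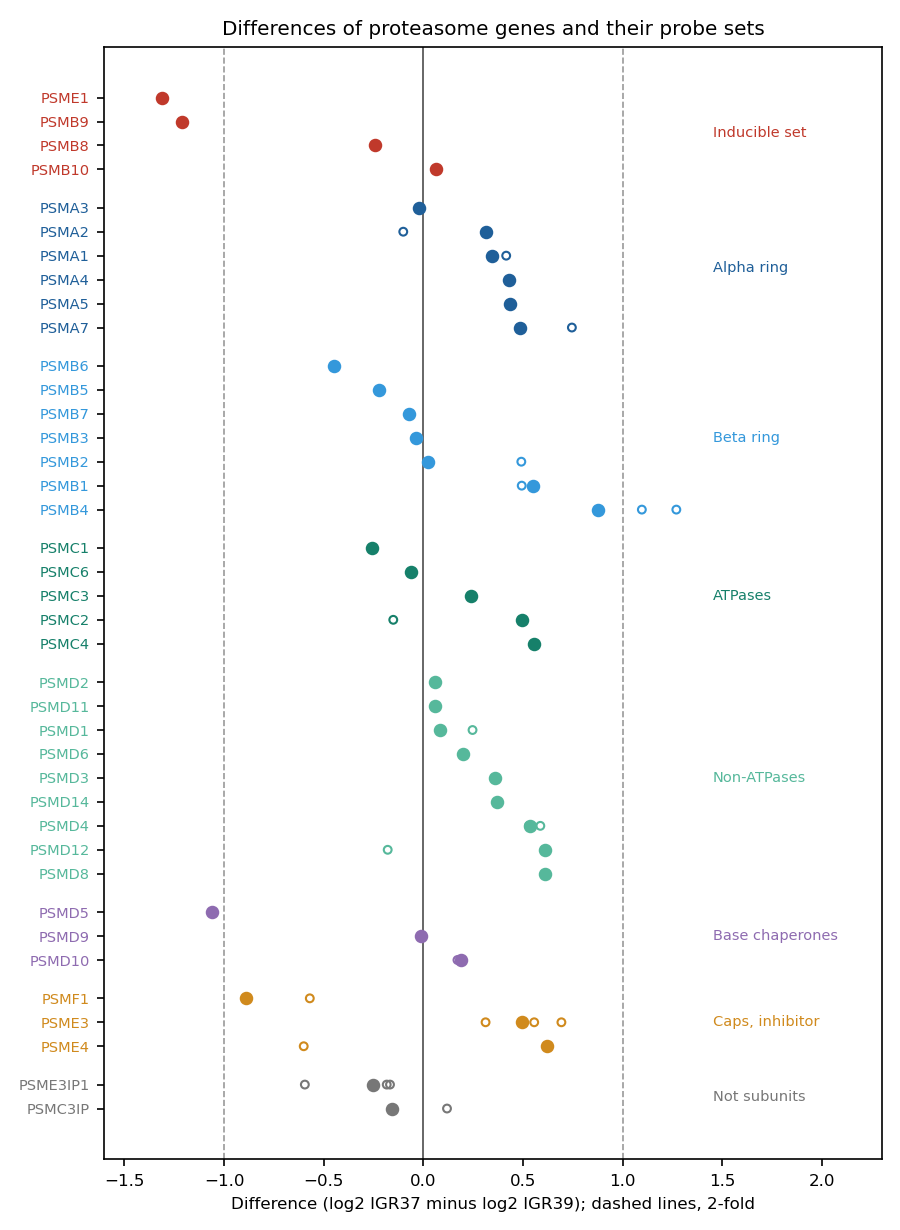
Differences on the log2 scale (IGR37 minus IGR39) of the 39 members (filled) and of their other probe sets at or above log2 6 (open), grouped by role, with dashed lines at 2-fold. The filled points of PSME1, PSMB9 and PSMD5 lie beyond the left line, and open points of PSMB4 beyond the right one.

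Of the 39 members, 16 had several probe sets at this level, and in 11 of them all gave the same direction. The exceptions were PSMA2, PSMC2, PSMC3IP, PSMD12 and PSME4. The members were also bright genes, and bright genes passed the 2-fold limit less often here. Of the genes with a mean of at least log2 8, 6.68% were lower by at least 2-fold and 8.58% were higher. Of the 34 members at that mean, 2 (5.88%) were lower, PSME1 and PSMD5, and 0 were higher.

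Of 18 factors that assemble or accompany the proteasome, 13 were higher in IGR37 and 5 lower, with a median of 0.53. Of all 8501 genes tested, 4635 were higher and 3862 lower. The difference was past 2-fold upwards for 3 of the 18 factors, or 16.7% beside 11.4% of all genes, and downwards for 0. This list shares no member with the symbol rule. PSMG1, a chaperone of the alpha ring, was at 8.46 in IGR39 against 9.94 in IGR37, a difference of 1.48. POMP, which completes assembly of the core and is needed for immunoproteasomes, was at 11.26 and 12.28. Its difference of 1.02 dropped to 0.86 after centring on housekeeping genes and to 0.90 after the lowess correction. UCHL5, a deubiquitinase of the regulatory particle, was at 8.53 and 9.91. The lower genes were RAD23B, ECPAS, ADRM1, ZFAND5 and UBQLN1, with differences from -0.60 to -0.12. The list's median stood 0.46 above that of all genes, and 0.41 after the lowess correction.

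Among factors that control proteasome genes, NFE2L1, which raises their expression when the proteasome is inhibited, was at 9.17 in IGR39 against 8.98 in IGR37. Its relative NFE2L2, the factor of the antioxidant response, was at 8.71 and 9.21. MAFF, a small MAF protein that dimerises with these factors, was at 6.78 and 9.98, and NFE2L3, another relative, at 6.46 and 4.52, so that it met the minimum through IGR39 alone. The remaining 7 of the 9 genes of this list that met the minimum lay within 2-fold. The shares past 2-fold were thus 11.1% higher and 11.1% lower, near the 11.4% and 9.50% of all genes.

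Among inducers of the immunoproteasome, IRF1, IRF9 and NLRC5 were lower in IGR37. IRF1, which binds the interferon core shown above, was at 8.36 in IGR39 against 5.03 in IGR37. IRF9, a subunit of the complex activated by type I interferon, was at 7.30 and 5.26, and NLRC5, the activator of HLA class I genes, at 6.08 and 4.42. These 3 of 13 genes, or 23.1% beside 9.50% of all genes, were past 2-fold, but each met the minimum through IGR39 alone. Of the 10 genes at or above it in both lines, 0 were lower by that much. IFNGR1, a chain of the interferon gamma receptor, was the 1 gene at least 2-fold higher, at 6.92 and 8.58. The remaining 9 lay within 2-fold, among them JAK1 at 8.92 and 8.83. The other transcription factors among these were STAT3, IRF3 and RELA, with differences of -0.43, -0.41 and -0.25, and NFKB1, with 0.31.

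The genes that act after the proteasome in antigen presentation were lower for 4 of 14 by at least 2-fold, or 28.6% beside 9.50% of all genes, and higher for 0. TAPBPL and ERAP2, which are among the 4, met the minimum through IGR39 alone. Of the 12 at or above it in both lines, 2 were lower by that much, HLA-B and HLA-C. TAP1, which shares its upstream region with PSMB9, was at 7.93 in IGR39 against 7.54 in IGR37. Its difference of -0.39 was smaller than the -1.21 of PSMB9. TAP2, on the other side of PSMB8, was at 6.34 and 6.36. Among these neighbours on chromosome 6, PSMB9 had the largest difference. TAPBP, the bridge between the transporter and class I molecules, was at 8.99 and 8.02, and its relative TAPBPL at 6.44 and 4.43. HLA-B was at 11.86 and 9.39, and HLA-C at 11.72 and 10.15. ERAP2, which trims the peptides, was at 8.52 and 4.65. Such genes as HLA-B and HLA-C are closely similar in sequence to other HLA genes, so their probe sets may share signal.

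Of 24 interferon-stimulated effector genes measured, 19 met the minimum, 12 of them through IGR39 alone and 0 through IGR37 alone. A gene that enters in this way had to be lower in IGR37, so no median is read from the list. Of the 7 at or above the minimum in both lines, 3 were lower by at least 2-fold and 0 higher. Over all 8501 genes tested these shares were 9.50% and 11.4%. Those genes include ones that met the minimum in 1 line alone, so the shares are not for a like set. The part of interferon signalling in the result was not tested. Leukocytes carry immunoproteasomes, so their markers were read as well. Of 18 measured, 1 reached log2 6, CD74 at 6.02 in IGR39 against 5.04 in IGR37, while PTPRC was at 3.31 and 3.41. The log2 of their summed linear signal was 8.47 and 8.36. The lineage markers differed between the lines themselves. MLANA, PMEL, TYR, TYRP1, SOX10 and S100B were near background in IGR39, at 3.15 to 4.29, and at 8.38 to 13.05 in IGR37, and MITF was at 7.57 and 11.81. As each line is 1 culture on 1 array, stage of disease, line and array cannot be told apart.

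**Figure D4:**
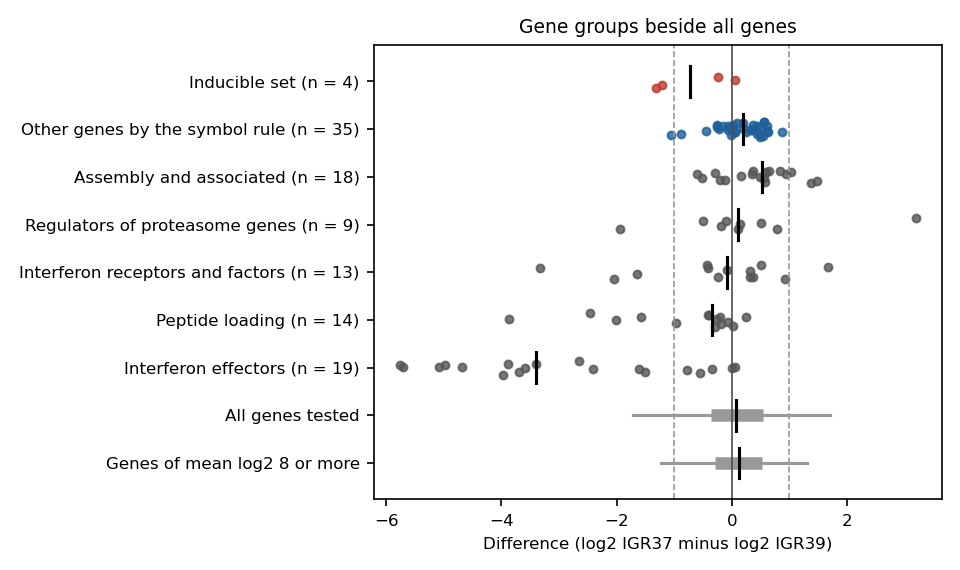
Differences on the log2 scale (IGR37 minus IGR39) of genes at or above log2 6 in 7 groups, 1 point per gene, with black bars at the medians; grey bars give the quartiles, and grey lines the span from the 5th to the 95th percentile, of all genes tested and of genes with a mean of at least log2 8. The inducible set has its median at -0.73 and the other members theirs at 0.20. Of the 19 interferon effectors plotted, 12 met the minimum through IGR39 alone and so had to be lower, and their median bar is not read. Such genes also weigh on the bars of the interferon receptors and factors (3 of 13), peptide loading (2 of 14) and regulators (1 of 9).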

How the data were processed

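Total RNA of 2 melanoma lines was hybridised to 1 array each. The authors deposited log2 values, 1 per probe set, computed by RMA (affy) according to their processing notes in the labels. Software versions and the arrays normalised jointly are not stated there. RMA subtracts background and makes array distributions alike, so overall differences in brightness are removed and low-level differences compressed. Names came from the platform annotation, in which 41091 probe sets had 1 symbol and entered, 1801 had several and did not. Control probe sets were left out of gene values.

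The probe set of highest mean level stood for each gene, and genes under log2 6 in the brighter array were not counted. No test was run, since each line has 1 array, and array number limits the precision. All 5 inducible genes, their counterparts, members past 2-fold, the extremes of each role class, the non-subunits, and fixed regulators or those past 2-fold were named. The members and lists were chosen with earlier results of these data known. The calculation was tested on simulated data. Motifs were searched on both strands of RefSeq windows (GRCh38.p14). Results were recomputed under 10 other settings (minimum level, choice of probe sets, scaling, symbols) and 2 more added after seeing the data. Python 3.11.15, numpy 2.4.6, pandas 2.3.3, statsmodels 0.14.6 (lowess, span 0.3) and matplotlib 3.10.9 were used.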

Additional observations from a re-analysis of the deposited data

How the results depend on the processing

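The median difference of the inducible set was -0.73 and moved to -1.21 when _x_at and _s_at probe sets were left out, where 3 of its genes remained and the gap to the other members went from -0.92 to -1.33. Under the other alternatives the set's median ran from -0.89 to -0.70 and the gap from -0.96 to -0.86. The centrings take the same amount from every gene and cannot change the gap. The number of members at least 2-fold higher was 0, and became 1, PSMB4, when every probe set of a gene was averaged and when those at or above log2 6 were, the latter chosen after seeing the data. The number at least 2-fold lower was 3, and 2 to 4 under the alternatives. Of 441 recomputed values of 39 named genes, 7 moved by the between-probe-set SD of 0.40 or more, and 0 reversed among those past 2-fold. Many of these values could not move that far. A changed minimum leaves the value of a kept gene as it was, and the centrings subtracted only -0.02 and 0.16. The counted inducible genes have 1 probe set each, so the choice of probe sets could not move them either. The count is therefore no measure of robustness. Centring on housekeeping genes shifted the median of all genes from 0.07 to -0.09. No paired analysis was possible because each line has 1 array. What limits these values is the single array per line, and for the dimmer genes a signal near background.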

Other observations

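Some probe sets carry a proteasome symbol together with that of another gene and were not counted above. One, listed under both MIR7703 and PSME2, was at 9.97 in IGR39 against 8.60 in IGR37, a difference of -1.37, and its design transcript is listed by RefSeq under PSME2. Those listed under both PRORP and PSMA6 were at 11.41 and 11.09, and at 7.27 and 7.04. These values belong to the probe sets and are not assigned to either gene.

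The promoter window of PSME2 was searched as well, although the gene has no value here. The interferon core began at position -28 relative to its start, as GAAAGCGAAA, the same letters as in PSMB10.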
